A study of Homo sapiens with 12 samples.

Results

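THE1 elements are annotated copies of a primate LTR retrotransposon group of the MaLR family, and their reads were followed here across 4 tagged proteins. Members were all annotated repeats whose subfamily name starts with THE1 and that had reads on their own strand, with internal parts (names ending in -int) kept apart from LTRs. Of 1509971 repeat elements with such reads in any of 12 libraries, 23291 were THE1 elements, 16935 of them LTRs and 6356 internal parts. They fall into 9 subfamilies, the LTRs THE1A, THE1B, THE1C and THE1D and the internal parts THE1A-int, THE1B-int, THE1C-int, THE1D-int and THE1-int.

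The libraries came from PAR-CLIP, in which cells take up 4-thiouridine, protein and RNA are crosslinked with UV light, and RNA is recovered from the precipitate of a tagged protein. The cells were A375, a melanoma line of long standing, transiently transfected with a V5-tagged construct, and labelling began 24 h later. Clover, a fluorescent protein, was the control. Z18fl was full-length ZC3H18, Z18trunc was truncated ZC3H18, and Z18truncZnFmut was the truncated protein with its aromatic zinc finger residues mutated, and each construct had 3 libraries. The constructs were expressed from transfected plasmids on top of the cells' own ZC3H18, and the files hold repeats only, so A375 marker genes could not be checked. The labels do not say whether the 3 libraries of a construct came from separate cultures, so p-values measure the spread between these libraries, which may be technical.

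A complete THE1 insertion carries an internal part between a pair of LTRs, and many copies remain only as a solo LTR after recombination. The internal part of MaLR elements codes for no protein known to be active, while LTRs hold the promoter and the polyadenylation signal, and some THE1B LTRs are known to act as promoters or enhancers of human genes. ZC3H18 is a CCCH zinc finger protein that joins the cap-binding complex to nuclear RNA surveillance complexes, which hand unspliced, intronic and other noncoding transcripts to the exosome.

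The motifs searched were AATAAA (a form of the polyadenylation signal), ATTTA (the core of AU-rich elements) and TTTTT. They were searched on the strand of the element in hg38, with overlapping matches kept. Other forms of the polyadenylation signal were not searched, so the AATAAA shares do not show how many elements carry a signal. Among all members of at least 300 bases, the first 300 bases held AATAAA in 22.3% of internal parts and 6.52% of LTRs, ATTTA in 10.6% and 7.35%, and TTTTT in 14.4% and 32.0%. Over their whole length internal parts had a median of 1535 bases, 53.2% AT and 24.7% T, and LTRs a median of 360 bases, 55.5% AT and 32.5% T. The window thus takes in most of an LTR and a small part of an internal part. Over the whole length of all members, AATAAA lay in 32.2% of internal parts and 8.74% of LTRs. ATTTA lay in 88.3% and 10.7%, and TTTTT in 46.1% and 43.0%.

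One library stood apart. Z18truncZnFmut replicate 3 listed 15369 THE1 elements, against 1798 to 5350 in the other 11, and repeats took 16.3% of its aligned fragments when both strands were counted, against 6.28% to 9.59% elsewhere. It was kept in the fits of its group, and its own value is given beside the single-value measures where it lay apart. Aligned fragments ranged from 16683132 to 25686948 per library. THE1 counts along the element strand were 5746 to 6188 in Clover and 11100 to 31781 in the other 9 libraries, and 65.1% to 77.2% of them came from uniquely mapping reads.

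THE1 internal parts held more reads in every library of the 3 ZC3H18 constructs than in any Clover library. In CPM (counts scaled to an equal total of 1000000 aligned fragments in every library) internal parts stood at 206, 202 and 185 in Clover, 421, 401 and 437 in Z18fl, and 329, 336 and 378 in Z18trunc. In Z18truncZnFmut they stood at 302, 305 and, in the library that stood apart, 578. The Clover mean was 198 ± 10.9 (SD, n = 3), so the Z18fl mean of 420 ± 18.1 was 2.12 times and the Z18trunc mean of 347 ± 26.5 was 1.76 times the control. Z18trunc lay below Z18fl without overlap. Each of these separations gave an exact permutation p = 0.1 (two-sided), the smallest that 3 against 3 can give, and 0.172 after Benjamini-Hochberg adjustment over 50 such tests on 10 measures.

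THE1 LTRs moved less in Z18fl. They stood at 165, 143 and 140 CPM in Clover and at 220, 219 and 228 in Z18fl, a ratio of 1.49. In Z18trunc they stood at 197, 211 and 282 CPM, overlapping Z18fl. The Z18truncZnFmut libraries had 185, 216 and 735. All 3 constructs lay above Clover (exact permutation p = 0.1, adjusted 0.172, for each), though the Z18truncZnFmut mean of 379 ± 309 (SD, n = 3) was set by 1 library.

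Part of these differences was shared by repeats in general. Scaled by aligned fragments, the median log2 fold change over all repeat loci tested against Clover was 0.37 in Z18fl, 0.31 for Z18trunc and 0.15 for Z18truncZnFmut, and over all subfamilies tested, which sum the reads of every element, it was 0.46, 0.48 and 1.04 in the same order. TMM scaling, used for the tests of loci and subfamilies, set these medians near 0. The subfamily median of 1.04 for Z18truncZnFmut includes the library that stood apart. Repeats of both strands took 16.3% of its aligned fragments, against 8.37% and 8.44% in its replicates. As a share of all LTR-class counts, a measure free of library size, THE1 elements made up 8.59% ± 0.191 (SD, n = 3) in Z18fl and 7.43% ± 0.539 in Z18trunc against 5.22% ± 0.279 in Clover, without overlap (exact permutation p = 0.1, adjusted 0.172). Z18truncZnFmut had shares of 6.28%, 6.61% and 8.39%. The libraries hold pulled-down RNA and no matched input was used here, so more THE1 RNA in the cells and more THE1 RNA per pulled-down protein cannot be told apart. The amount of protein pulled down was not measured here either. Its part in the differences between constructs, Z18trunc and Z18fl among them, was not tested.

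**Figure D1:**
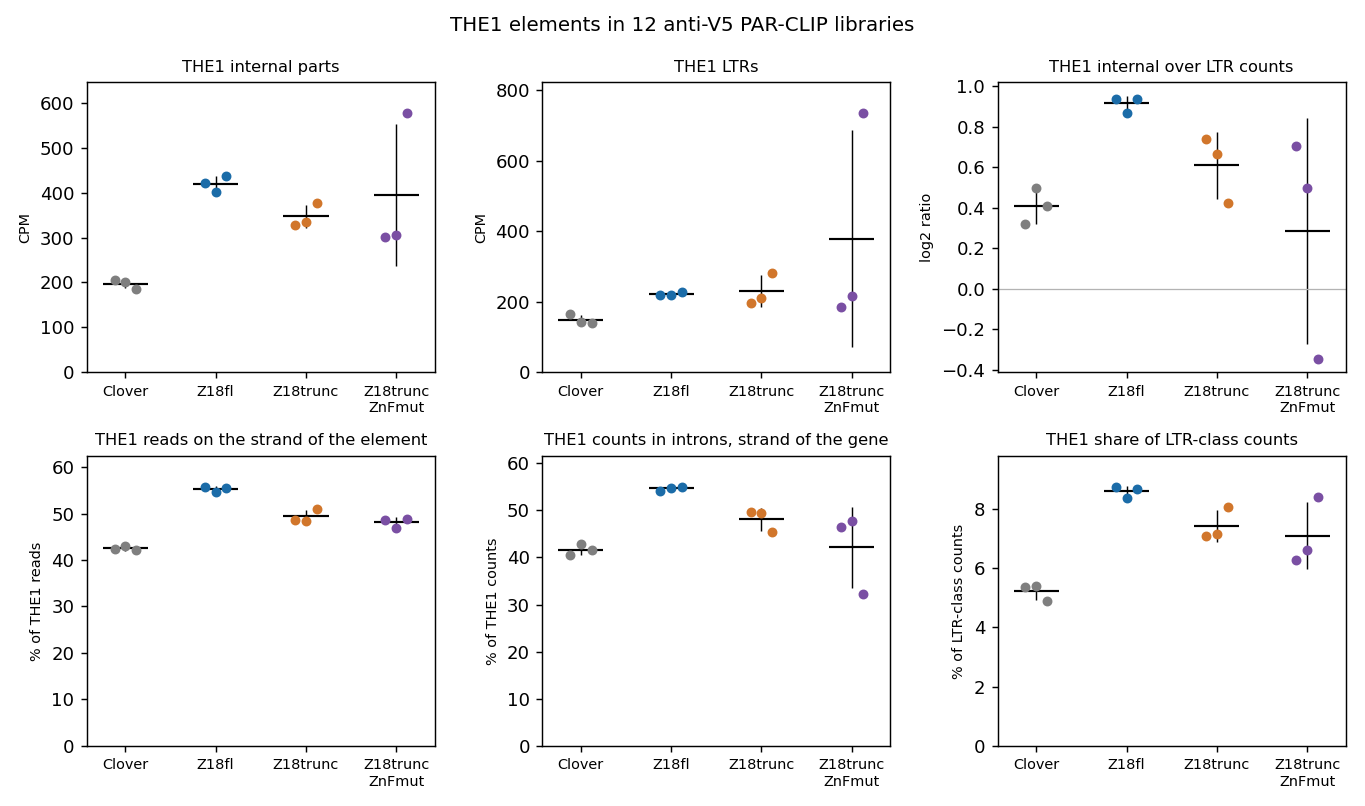
THE1 measures in each of the 12 libraries (points), with the group mean (horizontal bar) and SD (vertical bar) for 3 libraries of each construct. The panels give CPM of internal parts and LTRs, the log2 ratio of internal to LTR counts, and, in percent, THE1 reads on the strand of the element, THE1 counts in introns and the THE1 share of LTR-class counts. Internal parts stand between 401 and 437 CPM in Z18fl against 185 to 206 in Clover, and 1 Z18truncZnFmut library lies far from the other 2 in the upper panels.

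The balance within THE1 lay further toward internal parts in Z18fl than in Clover. The log2 ratio of internal to LTR counts was 0.32, 0.50 and 0.41 in Clover and 0.94, 0.87 and 0.94 in Z18fl. It was 0.74, 0.67 and 0.42 in Z18trunc, below Z18fl in each library and overlapping Clover. Z18truncZnFmut had 0.70, 0.50 and −0.35, the last from the library that stood apart. Per length of annotated sequence, internal parts held 0.909 to 1.03 times the read density of LTRs in Clover and 1.33 to 1.39 times in Z18fl. The Z18fl shift against Clover, 0.51 on the log2 scale, gave an exact permutation p = 0.1 (adjusted 0.172), and the Z18trunc shift of 0.20 gave p = 0.2 (exact, adjusted 0.323).

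Strand and gene context moved with it. Of all THE1 reads, 42.5% ± 0.447 (SD, n = 3) lay on the strand of the element in Clover. The share was 55.3% ± 0.588 in Z18fl, 49.4% ± 1.35 for Z18trunc and 48.1% ± 1.08 for Z18truncZnFmut, whose library that stood apart lay near the others at 48.9%, so that reads against the strand outnumbered reads along it in the control and not in Z18fl. Elements in introns, on the strand of the gene, took 41.6% ± 1.2 of THE1 counts in Clover, 54.7% ± 0.400 in Z18fl and 48.1% ± 2.41 in Z18trunc. The exonic share was 9.82% ± 0.743 in Clover, 7.28% ± 0.248 in Z18fl and 7.41% ± 1.13 in Z18trunc. None of these groups overlapped Clover, and Z18fl and Z18trunc overlapped each other only in the exonic share (exact permutation p = 0.1 for each separation, adjusted 0.172). In Z18truncZnFmut the intron share was 42.2% ± 8.63, with the library that stood apart at 32.3% (95% Wilson interval 31.7 to 32.8, covering counting error only). The AT content of the elements, weighted by their counts, differed little, at 53.15% ± 0.134 in Clover and 53.29% ± 0.00742 in Z18fl.

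By subfamily, the internal parts of THE1A, THE1B and THE1C rose in Z18fl, and THE1A alone was called among the LTRs after TMM scaling, in edgeR fits over 914 subfamilies in which 20.1% were called higher and 20.1% lower at an adjusted p under 0.05. THE1C-int stood at 23.6, 22.2 and 18.8 CPM in Clover and at 65.6, 59.8 and 65.5 in Z18fl, a log2 fold change after TMM scaling of 1.10 (SE 0.0810, edgeR adjusted p = 4.65e-08). THE1B-int, which held the most reads of the 5 internal subfamilies in Z18fl, went from 68.1, 66.7 and 57.4 CPM to 166.9, 162.0 and 176.8 (0.92 on the log2 scale, SE 0.0720, edgeR adjusted p = 8.23e-08). THE1A-int went from 37.0, 35.0 and 34.8 CPM to 83.8, 77.6 and 88.0 (0.75, SE 0.0731, edgeR adjusted p = 7.72e-07). In all 3 the groups stood well apart.

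THE1D-int showed a log2 fold change of 0.12 (SE 0.0681, edgeR adjusted p = 0.200), with 65.6, 64.1 and 59.7 CPM in Clover and 94.7, 92.6 and 97.1 in Z18fl, a separation in CPM but not after TMM scaling. THE1-int, of which 82 copies had reads, was lower in Z18fl, at 10.1, 9.31 and 10.0 CPM against 11.7, 13.6 and 14.8 in Clover (−0.92, SE 0.121, edgeR adjusted p = 1.56e-05), and a single chromosome 19 fragment described below held most of its reads. Among LTRs, THE1A was higher by 0.34 (SE 0.0918, edgeR adjusted p = 0.00725), while THE1B, THE1C and THE1D gave log2 fold changes of 0.10, 0.13 and 0.01 with adjusted p of 0.236, 0.190 and 0.936. In CPM these LTR subfamilies also separated, THE1B standing at 65.5 to 76.6 in Clover and 102.6 to 103.2 in Z18fl, and with library sizes from aligned fragments all 4 LTR subfamilies were called higher. The THE1-int and THE1A calls were lost in the fit over all 12 libraries. Counting reads of both strands took the THE1A-int value to −0.03 and the THE1A value to −0.18.

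THE1A-int, THE1B-int and THE1C-int rose in Z18trunc as well. Against Clover, THE1A-int was higher by 0.36 (SE 0.0912), THE1B-int by 0.55 (SE 0.0894) and THE1C-int by 0.77 (SE 0.0963) on the log2 scale, with edgeR adjusted p of 0.00590, 1.26e-04 and 6.15e-06 in a fit where 15.7% of 924 subfamilies were called higher and 11% lower. The THE1A-int call was lost in the fit over all 12 libraries, without replicate 1 of Clover and without replicate 2 of Z18trunc, and with reads of both strands it and the THE1B-int call were lost. edgeR and DESeq2 called no THE1 LTR subfamily, and 1 (THE1C) passed an unadjusted p under 0.05. Set directly against Z18fl, the 3 were lower in Z18trunc by −0.44, −0.43 and −0.38 (edgeR adjusted p = 0.00465, 0.00413 and 0.0141), while THE1-int was higher by 0.47 (adjusted p = 0.0420), in a fit where 2.22% of 947 subfamilies were called lower and 1.48% higher. A fit over all 12 libraries made none of these 4 calls. The THE1-int call held under 5 of 13 alternatives and was lost without any 1 of the Z18fl libraries or replicate 1 or 2 of Z18trunc, and with unique reads, and the THE1A-int and THE1C-int calls were lost without replicate 1 of Z18fl. The THE1C-int call was also lost without replicate 1 or 2 of Z18trunc and with library sizes from aligned fragments, and reads of both strands ended the calls of all 3 lower subfamilies.

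For Z18truncZnFmut no THE1 subfamily was called against Clover, where 1.3% of 920 subfamilies were called higher and 0% lower, and 1 of the 9 passed an unadjusted p under 0.05. THE1C-int had the highest value, 0.54 (SE 0.163, edgeR adjusted p = 0.122), with 44.8, 42.3 and 90.5 CPM. Without replicate 3 of Z18truncZnFmut, 2 THE1 subfamilies were called higher, and DESeq2 called 1 with all 3 libraries. Between Z18truncZnFmut and Z18trunc edgeR called none of 956 subfamilies (0% in each direction), no THE1 subfamily passed an unadjusted p under 0.05, and DESeq2 called none. The internal subfamilies THE1A-int to THE1D-int lay between −0.28 and −0.17 in that comparison and the 4 LTR subfamilies between 0.02 and 0.18.

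**Figure D2:**
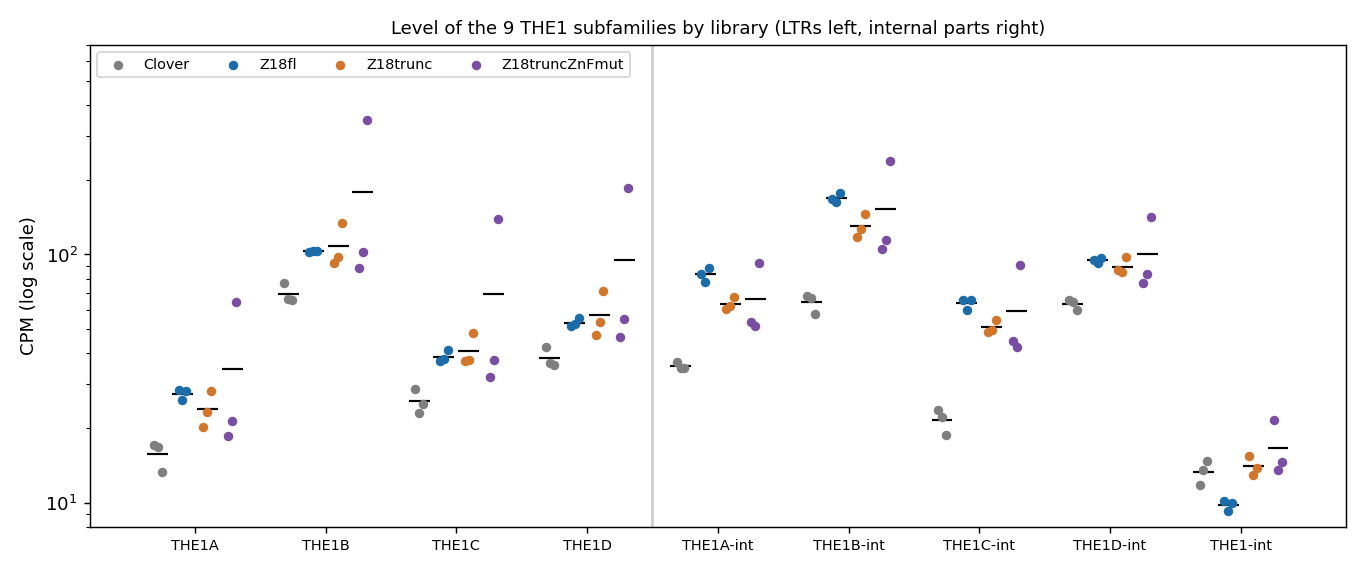
CPM on a log scale of the 9 THE1 subfamilies, LTRs on the left and internal parts on the right, with 1 point per library, 3 libraries per construct, and a bar at each group mean. THE1A-int, THE1B-int and THE1C-int are separated between Clover and Z18fl by more than the LTR subfamilies are, THE1-int alone is lower in Z18fl than in Clover, and 1 Z18truncZnFmut library is the highest point in 8 of the 9 subfamilies.

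Most single THE1 elements had too few reads to test. Of 6356 internal parts 140, and of 16935 LTRs 36, passed the filter on low counts for Z18fl against Clover, and the internal parts that passed held 55.6% of internal counts in those libraries. Among them 84 internal parts were called higher and 13 lower in Z18fl, beside 28.3% higher and 24.6% lower of 12098 loci of all repeats tested. For the internal parts that is 60.0% higher and 9.29% lower, with a median log2 fold change of 1.32 against 0.01 over all loci. Of the LTRs 6 were higher and 5 lower, with a median of 0.04. An element near 0 in Clover can pass the filter only through its Z18fl reads, so these shares describe elements with enough reads and not THE1 elements as a whole. The same limit holds for the other comparisons of loci below.

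Among tested internal parts in Z18fl, 40 of 52 THE1B-int, 15 of 21 THE1C-int and 14 of 29 THE1A-int loci were higher, and 14 of 36 THE1D-int loci were higher while 10 were lower. By position, 59 of 80 in introns were higher and 2 lower, against 20 of 50 higher and 10 lower between genes. Shares by position were not taken over all repeat loci, so this contrast has no background and cannot be read as a trait of THE1. The 84 that were higher had a median length of 1557 bases, 52.6% AT and 24.5% T, close to the 52.0% AT and 24.2% T of the 43 that were not called. The 13 that were lower had a median length of 241 bases and 47.4% AT.

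Against Clover, 35 of 113 internal parts tested were called higher and 8 lower in Z18trunc, beside 22.5% and 13.4% of 13204 loci, and 3 of 39 LTRs were higher and 4 lower. The THE1 calls in Z18trunc, scaled by aligned fragments instead, were 54 higher and 1 lower in place of 38 and 12. In Z18truncZnFmut 12 of 79 internal parts were higher and 0 lower by edgeR, beside 12.3% and 4.83% of 10152 loci, and 2 of the 79 were lower at an unadjusted p under 0.05. Of 23 LTRs 0 were called by edgeR or DESeq2, and 0 passed an unadjusted p under 0.05. DESeq2 called 12 internal parts higher and 0 lower. Without replicate 3 of Z18truncZnFmut 14 THE1 loci were higher in place of 12.

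**Figure D3:**
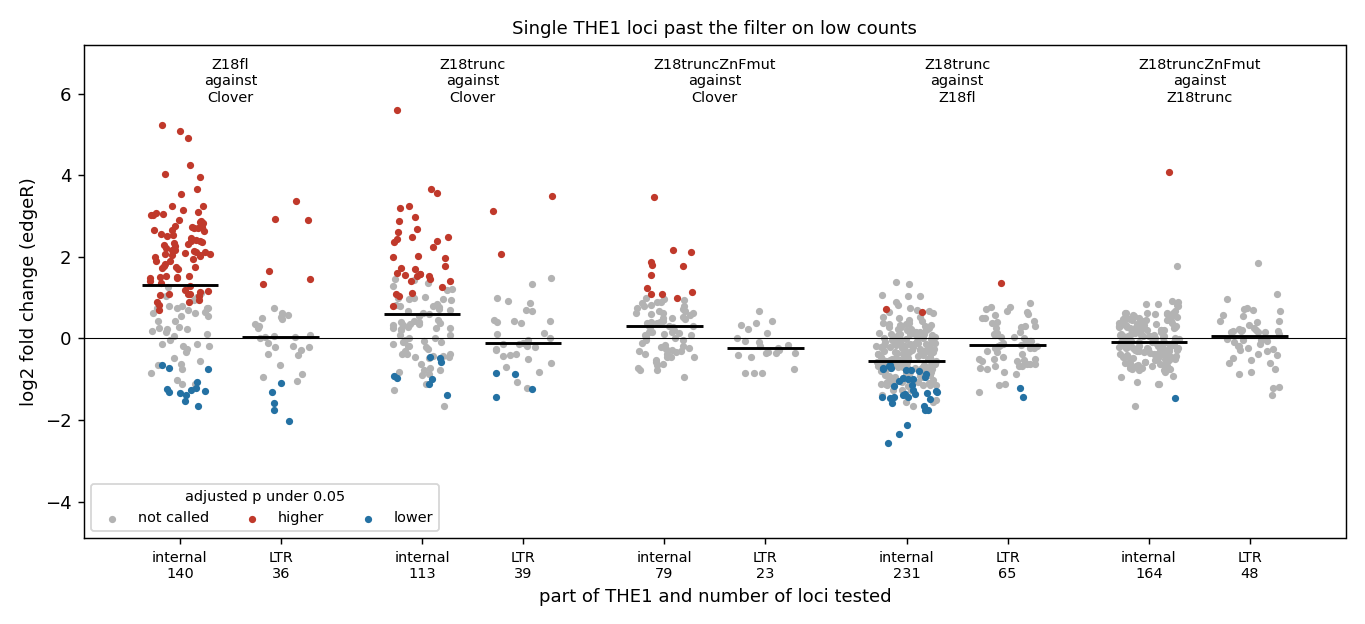
edgeR log2 fold changes of the single THE1 loci past the filter on low counts (1 point each, spread sideways for visibility) in 5 comparisons, internal parts and LTRs apart, with the number tested below and the median as a bar. Red points were called higher and blue points lower at an adjusted p under 0.05, and the internal parts reach a median of 1.32 in Z18fl against Clover while the LTRs stay near 0.

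The loci named next comprise those picked by a rule on counts, mapping and size, and others that were chosen after their values were seen, since few THE1 loci met the rule on mapping. Under the rule, THE1D-int at chr2:75941128-75942561, in an intron of the lncRNA gene ENSG00000287474, was higher in all 3 constructs. It had 43.65, 48 and 38 counts in Clover and 271, 225 and 277 in Z18fl. Z18trunc had 228.3, 233.6 and 239.7 counts, and Z18truncZnFmut 156, 127.7 and 147. Its log2 fold changes against Clover were 1.72 (SE 0.171), 1.61 (SE 0.174) and 1.09 (SE 0.205), with edgeR adjusted p of 3.65e-07, 8.99e-07 and 4.30e-04. The library of Z18truncZnFmut that stood apart lay among its replicates here.

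THE1D-int at chr15:46844181-46845767, between genes, also met the rule. It had 4, 0 and 6 counts in Clover, 25, 16 and 30 in Z18fl and 32, 23 and 18 in Z18trunc, with log2 fold changes of 1.94 (SE 0.572, edgeR adjusted p = 0.00816) and 2.01 (SE 0.589, adjusted p = 0.0112). THE1B-int at chr7:128661629-128663174, in an exon of the lncRNA gene ENSG00000242588, had 81, 49 and 71 counts in Clover, 244, 174 and 250 in Z18fl and 121, 158 and 146 in Z18trunc. It was higher in Z18fl by 0.88 (SE 0.184, edgeR adjusted p = 6.53e-04), and Z18trunc lay 0.72 below Z18fl (log2 fold change −0.72, SE 0.161, adjusted p = 0.0111), a call lost with no filter and without replicate 1 of Z18fl or of Z18trunc.

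The remaining internal parts were chosen after their values were seen. They had to be called, with a mean of at least 20 counts in the higher group and no overlap in CPM, in the comparison they were chosen for. THE1B-int at chr7:119885271-119886862, in an intron of the lncRNA gene LINC02476, had 12, 4 and 10 counts in Clover, 108, 108 and 96 in Z18fl. Z18trunc had 97, 93.29 and 71 counts and Z18truncZnFmut 50, 41 and 59. Against Clover it was higher by 2.74, 2.49 and 1.88 on the log2 scale (SE 0.310, 0.318 and 0.381), with edgeR adjusted p of 1.59e-06, 6.26e-06 and 8.98e-04. All 9 ZC3H18 libraries lay above the Clover libraries, though for Z18truncZnFmut this separation was a condition of the choice. THE1A-int at chr17:5185524-5187093, in an intron of ZNF594, a zinc finger gene, had 4, 6 and 10 counts in Clover, 92, 100 and 122 in Z18fl, while Z18trunc had 64, 74 and 56 and Z18truncZnFmut 36, 42 and 28, a descending order in which no construct overlapped the next. It was higher than Clover by 3.11, 2.43 and 1.77 (edgeR adjusted p = 2.77e-07, 1.81e-05 and 0.00526), and Z18trunc was below Z18fl by −0.77 (SE 0.181, adjusted p = 0.0150), a call lost with no filter, with all 12 libraries in the fit, and without replicate 2 of Z18fl or replicate 1 of Z18trunc. Z18truncZnFmut was not called against Z18trunc (−0.64, SE 0.254, edgeR adjusted p = 0.235), and its separation from Clover was a condition of the choice.

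Host genes of other risen internal parts included several with well-known roles. THE1B-int at chr15:56231623-56233091, in an intron of the transcription factor gene RFX7, went from 12, 7 and 7 counts in Clover to 80, 82 and 84 in Z18fl (2.39 on the log2 scale, SE 0.297, edgeR adjusted p = 4.54e-06). THE1B-int at chr4:98366454-98368013, in an intron of RAP1GDS1, which encodes an exchange factor for small GTPases, went from 5, 7 and 2 to 37, 32 and 64 (2.36, SE 0.425, adjusted p = 1.87e-04), and was also higher in Z18trunc and Z18truncZnFmut by 1.98 and 2.16. THE1B-int at chr11:10134357-10135930, in an intron of SBF2, went from 3, 1 and 0 to 39, 32 and 48.51 (3.96, SE 0.558, adjusted p = 1.74e-05), and with 4 Clover counts in all its fold rests on few reads. The calls named in this paragraph for Z18fl were made under every alternative in which the locus was tested.

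**Figure D4:**
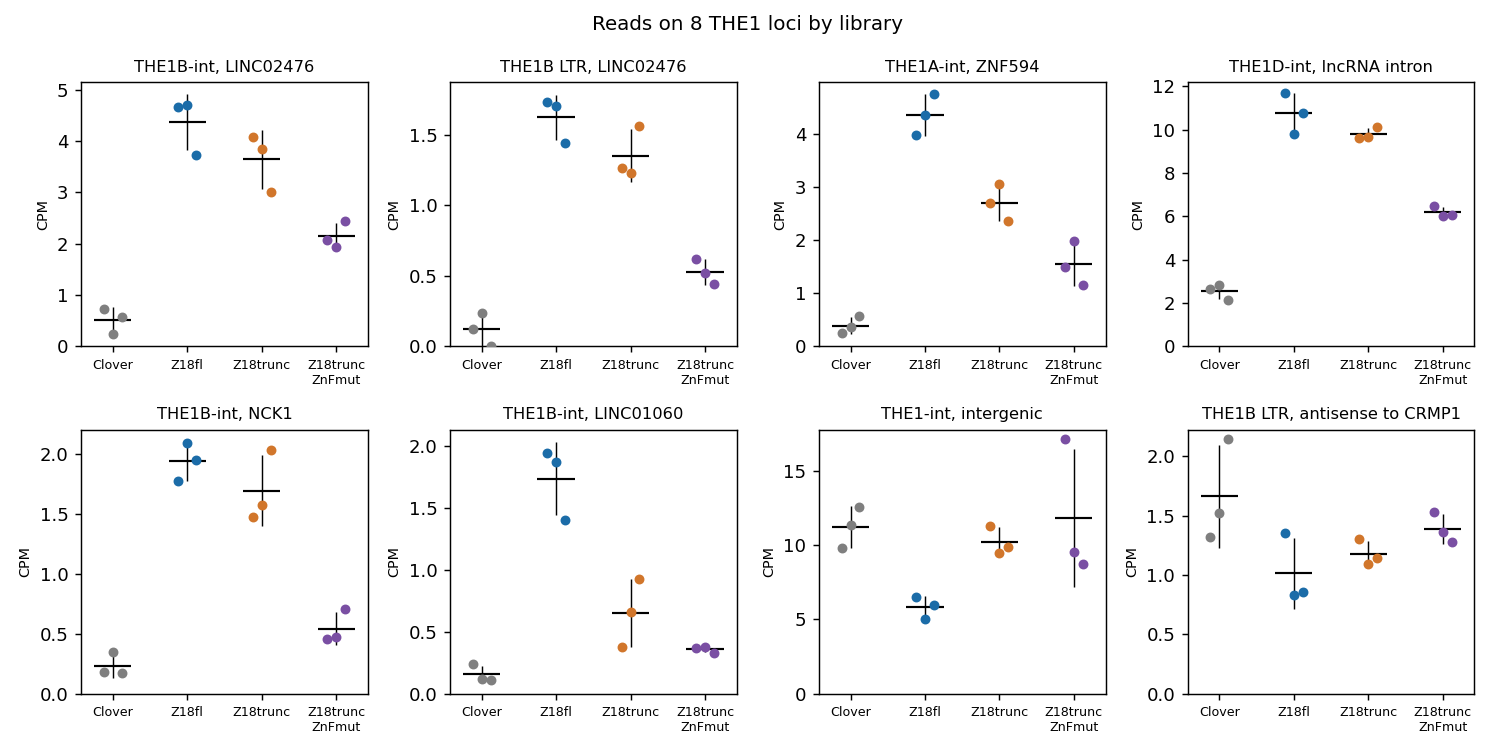
CPM of 8 THE1 loci in the 12 libraries (points), with the mean (horizontal bar) and SD (vertical bar) of 3 libraries per construct. The 6 internal parts and LTRs in introns are lowest in Clover, where the ZNF594 element averages 0.385 CPM against 4.36 in Z18fl, while the chromosome 19 fragment and the LTR antisense to CRMP1 have their lowest mean in Z18fl.

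Single LTRs that rose in Z18fl were few. Of the 6 called higher, 4 lay within 10 bases of a THE1 internal part on the same strand, out of 12 such LTRs among the 36 tested, and 2 were among the other 24. The THE1B LTR at chr7:119884916-119885270, directly downstream of the LINC02476 internal part, had 2, 4 and 0 counts in Clover, 40, 39 and 37 in Z18fl, while Z18trunc had 30, 29.71 and 37 and Z18truncZnFmut 15, 11 and 10.63. It was higher in Z18fl by 3.38 (SE 0.538, edgeR adjusted p = 6.12e-05) and in Z18trunc by 3.13 (SE 0.582, adjusted p = 3.08e-04). The THE1B LTR at chr3:128751770-128752125, in an intron of the small GTPase gene RAB7A, had 4, 10 and 4 counts in Clover and 20, 36 and 26 in Z18fl (1.34, SE 0.465, adjusted p = 0.0213), a call that was lost without replicate 1 or 3 of Clover or replicate 2 of Z18fl, at log2 fold changes of 1.05 to 3.07 over all alternatives. The other 4 were THE1A LTRs in introns of THOC5, a subunit of the mRNA export complex THO, and of ENSG00000243155, both beside internal parts, and THE1D LTRs in ENSG00000287474 and in the pseudogene SUCLG2P4, which were not.

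Summed over all LTRs, those beside an internal part stood further above Clover in Z18fl than the rest. The 4589 LTRs beside an internal part summed to 44.2, 39.0 and 38.4 CPM in Clover and to 83.3, 83.7 and 84.6 in Z18fl, a ratio of 2.07, close to the 2.12 of internal parts. The other 12346 LTRs summed to 121, 104 and 101 CPM in Clover and to 137, 136 and 144 in Z18fl, a ratio of 1.28. In Z18trunc the ratios to Clover were 1.86 and 1.43. In Z18truncZnFmut they were 2.56 and 2.53, both set by the library that stood apart. That library had 192 and 543 CPM, against 56.9 and 62.5 beside internal parts and 128 and 154 elsewhere in its replicates. This split was chosen after the data were seen and is given as a description with no test.

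The elements that were lower formed a separate set. THE1-int at chr19:6582810-6583003, a 194-base fragment between genes and the internal part with the highest mean count, had 163, 194 and 222 counts in Clover, 150, 115.8 and 153.9 in Z18fl, while Z18trunc had 269, 228.8 and 234.3 and Z18truncZnFmut 414, 203 and 212. In CPM it averaged 11.2 ± 1.40 (SD, n = 3) in Clover and 5.84 ± 0.727 in Z18fl, without overlap. Its log2 fold change after TMM scaling was −1.31 (SE 0.155, edgeR adjusted p = 2.57e-06) in Z18fl and −0.49 (SE 0.146, adjusted p = 0.0131) in Z18trunc, and Z18trunc lay above Z18fl by 0.73 (SE 0.152, adjusted p = 0.00647). The Z18fl call held under each of 13 alternatives, while the Z18trunc call held under 7 of 13 and was at −0.14 with library sizes from aligned fragments. It was lost without replicate 3 of Clover or replicate 1 or 2 of Z18trunc, and in CPM Z18trunc, at 9.46 to 11.3, overlapped Clover, at 9.77 to 12.6. The THE1D-int element at chr9:33594906-33596497, in an intron of ANKRD18B and chosen after its values were seen, had 85.21, 81.29 and 81 counts in Clover and 59.11, 53.79 and 73.31 in Z18fl (−1.26, SE 0.181, adjusted p = 2.17e-05).

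Of the 13 internal parts lower in Z18fl, 7 were THE1D-int copies on unplaced or unlocalized sequences of the assembly, 6 of them under 300 bases long, with a median of 42.8% uniquely mapping reads against 71.7% for the 6 on chromosomes. Reads shared among such copies were divided by the authors' counting and are uncertain. Among LTRs, THE1B at chr4:5817989-5818338, antisense to the neuronal gene CRMP1, had 22, 26 and 38 counts in Clover and 31.44, 19 and 22 in Z18fl (−1.09, SE 0.315, adjusted p = 0.00733), with CPM that overlapped between the groups. This call was lost without replicate 3 of Clover or replicate 2 or 3 of Z18fl, with no filter on low counts, and with library sizes from aligned fragments. The size of this set depended on the scaling, since with library sizes from aligned fragments 8 THE1 loci were lower in Z18fl in place of 18, and 101 were higher in place of 90. The 5 other LTRs with the highest mean counts, among them copies in exons of ENTPD1-AS1 and MTAP, were not called in Z18fl. The THE1A-int copy in an exon of ENTPD1-AS1 was lower by −0.65 (SE 0.173, edgeR adjusted p = 0.00442). Its CPM overlapped between the groups, at 7.35 ± 1.15 (SD, n = 3) in Clover and 6.03 ± 1.32 in Z18fl. That call was lost without replicate 2 of Z18fl, with no filter on low counts, and with library sizes from aligned fragments.

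Z18trunc and Z18fl were set against each other directly. Of 231 internal parts tested 35 were lower and 2 higher in Z18trunc, beside 3.13% lower and 2.62% higher of 19413 loci, with a median log2 fold change of −0.55 against 0.01 over all loci. Of 65 LTRs, 2 were lower and 1 higher. An element near 0 in Z18trunc can pass the filter only through its Z18fl reads, so these shares and the median describe elements with enough reads. THE1A-int at chr11:29077883-29079452, between genes and named by the rule, had 13, 16 and 24 counts in Z18fl and 2, 5 and 2 in Z18trunc (−2.57, SE 0.509, edgeR adjusted p = 0.00429), a call lost without replicate 3 of Z18fl, where its adjusted p lay just above the threshold. THE1B-int at chr4:188521682-188522801, in an intron of LINC01060 and chosen after its values were seen, had 4, 2 and 2 counts in Clover, 45, 43 and 36 in Z18fl, while Z18trunc had 9, 16 and 22 and Z18truncZnFmut 9, 8 and 8. It was lower in Z18trunc by −1.47 (SE 0.318, adjusted p = 0.00848), a call lost without replicate 2 of Z18fl or replicate 1 of Z18trunc.

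The 2 internal parts higher in Z18trunc than in Z18fl were the chromosome 19 fragment and THE1B-int at chr18:73371847-73373417, between genes, with 71, 58 and 83 counts in Z18fl and 121, 128 and 98 in Z18trunc (0.64, SE 0.176, edgeR adjusted p = 0.0333), which was called under 4 of 13 alternatives. The count of loci lower in Z18trunc, 37 with both parts together, fell to 14 with DESeq2, to 21 with library sizes from aligned fragments (with 5 higher in place of 3), and to 9 to 22 when a library of Z18fl or replicate 1 or 2 of Z18trunc was left out.

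Between the truncated proteins with and without mutated zinc finger residues, THE1 loci were called at about the share of all repeats. Of 164 internal parts and 48 LTRs tested between Z18truncZnFmut and Z18trunc, edgeR called 1 internal part lower and 1 higher, beside 0.351% lower and 0.368% higher of 16833 loci. For THE1 that is 0.472% in each direction. On simulated data 22.0% of 2-fold changes were recovered in this comparison, and replicate 3 of Z18truncZnFmut stood apart, so smaller differences could be missed. The one that was lower, THE1B-int at chr3:136872028-136873608 in an intron of NCK1, which encodes an adaptor of receptor signalling, had 3, 6 and 3 counts in Clover, 41, 48 and 50 in Z18fl, while Z18trunc had 35, 38 and 48 and Z18truncZnFmut 11, 10 and 17 (−1.46, SE 0.343, adjusted p = 0.0446), and was called under 5 of 13 alternatives. The one that was higher, THE1B-int at chr3:149837764 in ANKUB1, had 9.93% uniquely mapping reads and is uncertain. DESeq2 called neither, and edgeR called 0 of the 48 LTRs, of which 5 passed an unadjusted p under 0.05. The median log2 fold change of the internal parts was −0.09.

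MST and MLT1, the MaLR groups most like THE1, had fewer loci called higher than lower, with LTRs and internal parts counted together. Of 100 MST loci 22 were higher and 37 lower in Z18fl against Clover, with a median log2 fold change of −0.34. Of 343 MLT1 loci 59 were higher and 81 lower (17.2% and 23.6%), with a median of −0.20. Over all 12098 loci 28.3% were higher and 24.6% lower, and of 176 THE1 loci of both parts 90 were higher and 18 lower. Internal parts of MST and MLT1 were not counted apart, so the rise of THE1 internal parts has no like-for-like comparison here. The log2 ratio of THE1 LTR to MST LTR counts was −0.49 ± 0.0403 (SD, n = 3) in Clover and −0.17 ± 0.0251 in Z18fl, and that of THE1 LTR to MLT1 LTR counts was −2.74 ± 0.0335 and −2.58 ± 0.0179, each without overlap (exact permutation p = 0.1, adjusted 0.172). In Z18trunc they stood at −0.25 ± 0.0833 and −2.53 ± 0.127, and both lay above Clover and overlapped Z18fl.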

How the data were processed

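The authors trimmed reads with cutadapt 4.6, per the submitters' processing notes, and ran SQuIRE on hg38, whose version is not given in the sources used here, for 1 file per library. The deposited totals per element and strand are expected counts, since multimapping reads are shared out by expectation maximization, and the deposited unique reads and aligned fragments are counts. The deposited score is the percent of reads with an alignment to the element that were assigned to it, and was used only to choose named loci (at least 90). Chromosome lengths matched the hg38 reference for all 107 names in the files.

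Expected counts along each element (the strand it is annotated on), rounded, were tested with edgeR 4.0.16 (R 4.3.3): TMM, filterByExpr (minimum count 10, total 15), quasi-likelihood test on the 6 libraries compared, over all loci or subfamilies of 6 repeat classes, Benjamini-Hochberg adjusted p under 0.05. Single values were compared by exact two-sided permutation tests (scipy 1.17.1). Positions count from 1. Gene context came from GENCODE release 44, with at least 50% of an element in exons on its strand called exonic. Loci were named as the 6 LTRs and 4 internal parts with the highest mean, and up to 3 that changed most per comparison and direction without overlap and with 10 mean counts. On simulated data edgeR recovered 15.0% of 2-fold and 73.0% of 4-fold changes for Z18fl against Clover among 12098 loci, and 2.22% of its calls were false. For loci of Z18truncZnFmut against Z18trunc 6.86% were false. The simulation changed a small share of loci, equally up and down. In the data 28.3% were called higher and 24.6% lower for Z18fl against Clover, so the simulated false share may not carry over. DESeq2 1.42.0 and the other alternatives are described at the end. Members and lists were chosen with earlier results of these data known. A few items, element sequences among them, are not reported here.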

Additional observations from a re-analysis of the deposited data

Results flagged for a closer look

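Reads against the strand of THE1 elements entered the comparisons above only through the strand share and the fits on both strands. Compared on their own, in 4 cases all libraries of a construct exceeded all Clover libraries. Antisense reads of LTRs came to 246 ± 24.0 CPM (SD, n = 3) in Clover and to means of 312 in Z18fl, 342 for Z18trunc and 473 for Z18truncZnFmut, the last with 790 in 1 library. Antisense reads of internal parts came to 223 ± 6.13 CPM in Clover and 248 in Z18trunc (exact permutation p = 0.1 for each, unadjusted), while Z18fl, at 207 ± 8.58, lay below Clover without overlap. Repeats of both strands took 6.28% to 6.95% of aligned fragments in Clover, 8.10% to 8.77% in Z18fl and 8.68% to 9.59% in Z18trunc. Antisense reads of all repeats were not taken apart, so these rises have no like background and cannot be read as a trait of THE1. The THE1 elements with the most antisense reads were the THE1A-int and its 2 THE1A LTRs at chr2:46903003-46905220, in an intron of ENSG00000228925, where the internal part had 653.48, 563.46 and 699.99 antisense counts in Clover and 654.03, 631 and 736.94 in Z18fl.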

How the results depend on the processing

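The Z18fl rises of internal parts kept their direction and their call for THE1B-int and THE1C-int under each of 13 alternatives. Reads on either strand reversed 4 subfamily values: THE1A to −0.18, THE1A-int to −0.0341 and THE1D-int to −0.15 in Z18fl, and THE1A-int to −0.17 in Z18trunc. They also turned the internal-to-LTR ratio of Z18trunc minus Clover to −0.0278, the intron share of Z18truncZnFmut minus Clover to −0.342 and the exon share of Z18trunc minus Z18fl to −0.411. Unique reads turned that intron share to −0.870 and the LTR CPM of Z18trunc minus Z18fl to −0.597. Scaled by element counts, the latter was −244 and the internal difference of Z18truncZnFmut minus Z18trunc −98.6.

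Leaving out 1 library moved Z18trunc minus Z18fl across 0 for LTR CPM (−18.1 to 24.1), the THE1 to MLT1 ratio (−0.0250 to 0.0903), the exon share (−0.236 to 0.783) and AT (−0.0231 to 0.156). The lowest value came without replicate 3 of Z18trunc, except for the exon share, where it came without replicate 1. It moved Z18truncZnFmut minus Z18trunc across 0 for LTR CPM (−29.6 to 245), internal CPM (−43.9 to 94.2), LTR-class share (−0.982 to 0.0703), the MST ratio (−0.11 to 0.14), the MLT1 ratio (−0.11 to 0.24), the exon share (−2.48 to 0.111) and AT (−0.163 to 0.440), and Z18truncZnFmut minus Clover for the internal-to-LTR ratio (−0.33 to 0.19) and the intron share (−2.28 to 5.51).

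Counts of THE1 loci changed as follows. Lower in Z18fl were 8 with library sizes from aligned fragments, 5 with no filter, 30 with all 12 libraries, 53 with either strand and 7 to 23 without 1 library. Higher in Z18trunc were 63 with no filter, 69 with all 12, 58 with either strand and 30 to 60 without 1 library, the 60 without replicate 1 of Clover. Lower in Z18trunc were 4 with DESeq2, 1 with aligned fragments, 0 with no filter, 7 with unique reads and 3 to 12 without 1 library. Higher in Z18truncZnFmut were 19 with no filter and 37 with all 12, and lower were 4 with all 12, 3 with either strand and 0 to 1 without 1 library. Higher in Z18trunc than in Z18fl were 5 with aligned fragments, 0 with no filter, 1 with all 12, 6 with either strand and 1 to 3 without 1 library. Lower were 14 with DESeq2, 21 with aligned fragments, 9 with no filter, 9 with all 12 and 9 to 34 without 1 library. Between Z18truncZnFmut and Z18trunc, higher were 0 with DESeq2, all 12 or unique reads, 2 with either strand and 0 to 2 without 1 library, and lower were 0 with DESeq2 and 0 to 1 without 1 library.

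Of THE1 subfamilies, 8 were higher in Z18fl and 8 in Z18trunc with aligned fragments, and 2 and 1 with either strand. Lower in Z18fl were 0 with all 12 and 3 with either strand, and lower in Z18trunc 1 with unique reads and 0 to 1 without 1 library. In Z18truncZnFmut 1 was higher with DESeq2, 1 with all 12 and 0 to 2 without 1 library. Against Z18fl, Z18trunc had 0 higher with all 12 or unique reads and 0 to 1 without 1 library, and 0 lower with all 12 or either strand and 1 to 4 without 1 library. The cause of these changes was not tested.

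Same-numbered libraries correlated at −0.08 to 0.03 over 14023 loci, so no pairing by replicate number was seen. These correlations cannot tell whether such libraries were handled together, and the labels do not say. With the replicate block, Z18trunc against Z18fl gave 1 locus higher and 24 lower and 0 subfamilies in either direction, Z18truncZnFmut against Z18trunc gave 1 locus higher and 0 lower, and Z18fl against Clover gave 82 loci higher and 15 lower. Most THE1 elements had too few reads to test. On simulated data 15% to 24% of 2-fold changes were recovered among loci and 72% to 94% among subfamilies.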
